A study of Gallus gallus with 2 samples.

Results

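The collagen genes of the embryonic chick cerebellum were taken as all genes whose symbol is COL, a type number, A and a chain number. This rule found 33 of the 30108 genes in the table, and 30 of them had at least 100 unique molecular identifiers (UMIs, counted transcripts) over all cells. Collagens are secreted or membrane-bound proteins whose chains wind into a triple helix. Fibrillar collagens give connective tissue its strength, the network-forming type IV chains build basement membranes, and the fibril-associated collagens (FACITs) coat fibrils and anchor them at tissue borders. In the brain, type IV collagen lies in the basement membrane around blood vessels and under the pia. Fibrillar collagens are mostly made by vessel walls and meninges, and several transmembrane and fibril-associated collagens are made by neurons.

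The study profiled polyadenylated RNA cell by cell in wild type chick cerebella dissected at 4 stages, E6, E7, E8 and E9, where the number is the day of incubation; the labels give no treatment. The split-pool Evercode WT Mini kit was used, which barcodes fixed cells over rounds of wells. Dissected cerebella were pooled, the stages entered in 3 first-round wells each, and 2 sublibraries were sequenced from 1 mix of cells. The sublibraries are technical repeats, the labels do not tie wells to embryos, and the stages are 1 pool each, so no p-value could be computed.

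The table held 15190 cells and 101255521 UMIs, and 15189 cells were kept. The E6, E7, E8 and E9 pools gave 2488, 7648, 2478 and 2575 cells with medians of 3025.5, 6047, 3310 and 3172 UMIs, so E7 weighs most in values pooled over stages. In all, 896 cell barcodes occurred in both sublibraries. Levels are a gene's UMIs scaled to 1000000 UMIs of a set of cells (CPM), with exact 95% Poisson intervals that cover counting error only. CPM is not corrected for gene length, so levels are compared between cells and not between genes. Fewer cells of a type and less RNA per cell cannot be told apart in a pooled level.

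Cells were gated into classes on marker lists that hold no collagen. Mural cells (pericytes and smooth muscle of vessels) numbered 313, with PDGFRB in 99.0% and CSPG4 in 91.1% of them. They were 13, 105, 90 and 105 cells at E6, E7, E8 and E9, which is 0.523%, 1.37%, 3.63% and 4.08% of the cells of each stage. Of the smooth muscle markers, TAGLN and MYH11 had 3 and 15 UMIs in them, while ACTA2 stood at 209 CPM and was found in 55.9% of them, against 45.7 CPM and 46.7% in endothelial cells. Endothelial cells numbered 107, progenitors 2882 and neurons 9262. The endothelial cells had a median of 13295 UMIs, and 61 of the 107 belonged to the deepest 5% of cells of their stage, against 15 of the 313 mural cells. No doublets were removed, and their part in the levels below was not tested. Mural cells also carried endothelial-list UMIs, at 3513 CPM summed over 15 genes. FLT1 made up 3190 CPM of that, PECAM1 211 CPM and ERG 40.1 CPM, with UMIs in 99.0%, 55.9% and 14.1% of mural cells. In endothelial cells FLT1 was lower, at 2667 CPM, and PECAM1 and ERG were higher, at 782 and 736 CPM. CDH5 and KDR stood at 2.86 and 9.15 CPM in mural cells and CLDN5 at 0, against 1603, 944 and 72.2 CPM in endothelial cells. CSF1R, on the microglia list, stood at 311 CPM in mural cells and 10.8 CPM in endothelial cells, with a UMI in 56.9% of mural cells. Meningeal-list UMIs summed to 316 CPM over 14 genes in mural cells, none of them at 0. Of the 28 cells that passed the meningeal mesenchyme list, 16 also passed the mural list and were set aside. They held 267 CPM of COL1A1, 238 CPM of COL3A1 and 2174 CPM of COL4A1, with 1478 CPM of PDGFRB and 1545 CPM of the meningeal list, of which LAMA2 made up 791 CPM; whether they are meningeal, mural or doublets cannot be told apart. In the 12 cells that passed the meningeal list alone, PRRX1, LUM, FOXC2 and TWIST1 had 0 UMIs and neuron markers summed to 5586 CPM, so that gate is not read as meninges. At least 2-fold from all other cells, 3 collagen genes were higher in these 12 cells and 3 lower, where 13.1% and 4.95% of all genes were, and none of the 3 higher ones had 20 UMIs. A further 87 cells passed the choroid plexus and roof plate list. TTR and FOLR1 were at 0 there and RSPO3 and LMX1A led, at 892 and 384 CPM, so they are called RSPO3 and LMX1A cells below. They also held progenitor-list UMIs (PTN at 3093, GLI3 at 1083 and SOX2 at 21.2 CPM). Of the neuron list, MYT1L stood at 1208, SYT1 at 1191 and INA at 4.25 CPM. Whether this class mixes cell types was not tested.

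Summed over all 33 genes, collagens took 3895 CPM in mural cells, 2741 CPM in RSPO3 and LMX1A cells, 2434 CPM in progenitors, 1231 CPM in endothelial cells and 598 CPM in neurons. The 2 sublibraries differed by an SD of 392 CPM in mural cells, 105 CPM in progenitors, 4.29 CPM in endothelial cells and 6.66 CPM in neurons (n = 2 each). Pooled over stages, the order of these 4 classes held beyond that spread. It was not the same at each stage. At E9, progenitors had 3452 CPM (3365 to 3542) and mural cells 3304 CPM (3146 to 3469), against 1420 and 4383 CPM at E6. RSPO3 and LMX1A cells, at 2083 and 3511 CPM, overlapped the progenitors, at 2363 and 2511 CPM, and 1 of their cells held 263 of their 1936 collagen UMIs for COL14A1 alone. Over 9 classes (mural cells, endothelial cells, progenitors, 5 neuron types, and the RSPO3 and LMX1A cells), 11 of the 30 members with at least 100 UMIs had their highest level in mural cells, 10 in RSPO3 and LMX1A cells, 3 in progenitors and 2 in endothelial cells. The other 4 peaked in neuron types, 2 in SOX14 neurons and 1 each in the PAX2 lineage and glutamatergic nuclear neurons. The 4873 neurons gated to no type were in none of the 9 classes. Of all genes, 15.5% peaked in mural cells, 14.3% in RSPO3 and LMX1A cells, 17.2% in progenitors and 21.6% in endothelial cells. SOX14 neurons, the PAX2 lineage and glutamatergic nuclear neurons had 9.84%, 5.10% and 5.73%. Of the 10 members that peaked in RSPO3 and LMX1A cells, COL9A1, COL16A1, COL17A1 and COL20A1 did so on 10, 10, 9 and 7 UMIs, with intervals that overlap the next class. COL4A6 and COL26A1 also overlapped their next class there, progenitors and granule cells. Of the 11 that peaked in mural cells, COL4A3 and COL9A3 did so on 6 and 11 UMIs, again with overlapping intervals. The endothelial peaks, COL9A2 (13 UMIs) and COL13A1, also overlapped the next class. So did COL8A2 and COL11A1 in progenitors, and COL10A1 (5 UMIs) and COL21A1 in SOX14 neurons.

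**Figure D1:**
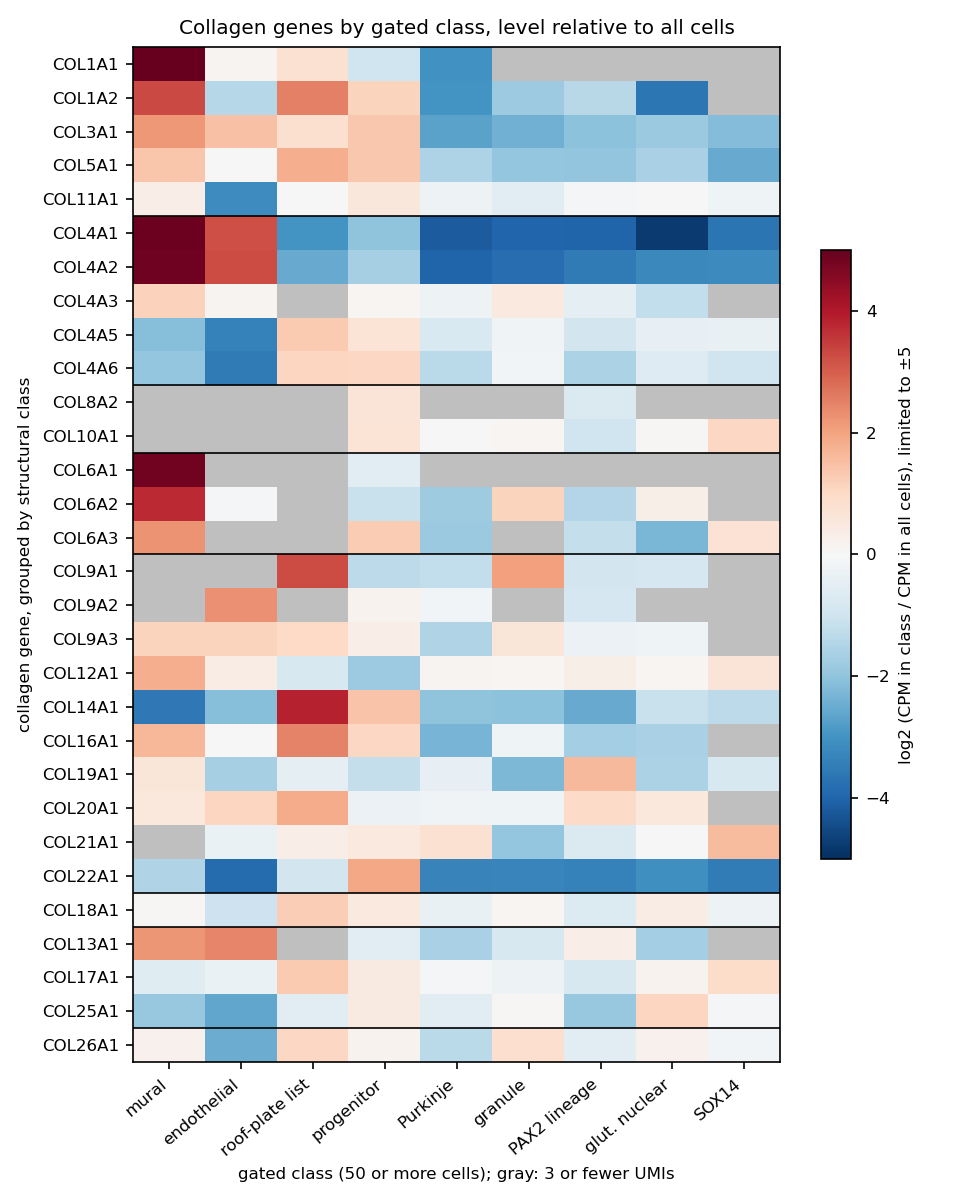
Levels of the 30 collagen genes with at least 100 UMIs (rows, grouped by structural class) in 9 gated classes (columns), as the log2 ratio of the CPM in the class to the CPM over all cells. COL1A1, COL4A1, COL4A2 and COL6A1 stand out in mural cells, COL22A1 in progenitors, and COL14A1 in RSPO3 and LMX1A cells; gray fields have 3 or fewer UMIs.

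Mural cells were first set against all other cells. Of the 30 members, 14 were at least 2-fold higher in mural cells and 6 at least 2-fold lower. Over all 15361 genes of that depth, 15.6% were that much higher and 21.5% that much lower. The members' median log2 ratio was 0.64, against -0.11 for all genes. With at least 20 UMIs asked of the higher side, 11 were higher and 6 lower. Here and below, the shares of all genes were counted without that condition, so they are not set against such counts.

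The basement membrane pair COL4A1 and COL4A2 encodes the chains of the common type IV network. COL4A1 stood at 1405 and 1308 CPM in the 2 sublibraries of mural cells, 396 and 439 CPM in those of endothelial cells, 10.7 and 11.9 CPM in those of progenitors, and 2.94 and 4.89 CPM in those of neurons. COL4A2 showed the same order, at 935 CPM in mural cells (95% interval 890.1 to 981), 315 CPM in endothelial cells (293 to 338), 10.3 CPM in progenitors and 3.69 CPM in neurons. The groups did not overlap, and mural cells exceeded all other cells by 5.92 on the log2 scale for COL4A1 (interval 5.84 to 6.01) and 5.81 for COL4A2 (5.71 to 5.91). Mural cells were also above endothelial cells, by log2 1.69 (1.58 to 1.80) for COL4A1 and 1.57 (1.45 to 1.70) for COL4A2. Thinned to 1000 UMIs per cell, 66.2% of mural cells, 19.2% of endothelial cells, 1.02% of progenitors and 0.360% of neurons held a COL4A1 UMI; unthinned, the shares were 95.5%, 82.2%, 4.93% and 1.60%. Erythroid cells, a type not expected to make it, held a COL4A1 UMI in 0 of the 36 of their 58 cells deep enough to thin. The 95% upper limit allows up to 9.74% of such cells to hold one at that depth. Unthinned, 0% of erythroid cells held one. The median depths were 4440, 13295, 3984, 4473 and 1289 UMIs in mural, endothelial, progenitor, neuron and erythroid cells, and 2, 3, 40, 88 and 22 of their cells were too shallow to thin.

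Of the other type IV chains, COL4A5 and COL4A6 ran the opposite way. COL4A5 and COL4A6, which form a second type IV network in some basement membranes, stood at 8.01 and 22.9 CPM in mural cells and at 3.32 and 7.47 CPM in endothelial cells, against 56.1 and 178 CPM in progenitors and 24.7 and 47.8 CPM in neurons. Their mural over all other cells ratios were log2 -2.14 (-3.01 to -1.39) and -1.95 (-2.44 to -1.50). COL4A3 and COL4A4, known as chains of the kidney filter's basement membrane, were near the limit of detection, at 155 and 93 UMIs in all. COL4A3 stood at 3.43 CPM in mural cells (6 UMIs), 1.66 CPM in progenitors and 1.04 CPM in neurons, with overlapping intervals for mural cells and progenitors.

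By RefSeq on GRCg7b, COL4A1 (chromosome 1, 138807413 to 138920608) and COL4A2 (chromosome 1, 138919708 to 139061817) overlap by 901 bases. COL4A5 (chromosome 4, 13859833 to 13939361) ends 412 bases before COL4A6 (chromosome 4, 13939774 to 14061222). Over the 9 classes, the log2 CPM of COL4A1 and COL4A2 correlated at r = 0.993 and Spearman's rho = 0.883, and COL4A5 and COL4A6 at r = 0.969 and rho = 0.983, whereas COL4A1 and COL4A5 gave r = -0.70 and rho = -0.15. These are descriptions over classes that share libraries, and neighbouring genes that overlap could share reads. The COL4A1 to COL4A2 ratio of UMIs was 1.45 in mural cells, 1.33 in endothelial cells, 1.10 in progenitors and 1.06 in neurons.

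Among the fibrillar collagens, COL1A1 and COL1A2 encode the 2 chains of type I collagen, the main fibril of bone, skin and vessel walls. COL1A1 stood at 151 and 175 CPM in the 2 sublibraries of mural cells, 8.15 and 1.53 CPM in those of endothelial cells, 2.06 and 2.09 CPM in those of progenitors, and 0.566 and 0.454 CPM in those of neurons. It was 119-fold higher in mural cells than in all other cells (log2 6.89, interval 6.59 to 7.20, sublibraries 6.50 and 7.32), the highest mural ratio among the 30 members. After thinning, 18.3% of mural cells (interval 14.2 to 23.1) held a COL1A1 UMI, against 0.141% of progenitors and 0.0763% of neurons; unthinned, the shares were 49.2%, 1.15% and 0.313%. After thinning, 0 of 104 endothelial, 0 of 36 erythroid and 0 of 41 microglial cells held one. The upper limits of these shares allow up to 3.48%, 9.74% and 8.60% of them to hold one at 1000 UMIs. Unthinned, 5.61% of endothelial cells and 0% of erythroid and microglial cells held one, so a level of 0 in endothelial cells is not read from the thinned share.

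COL1A2 was less confined. It stood at 99.0 CPM in mural cells (84.8 to 115), 58.0 CPM in RSPO3 and LMX1A cells (41.7 to 78.7), 21.5 CPM in progenitors (19.4 to 23.8), 3.74 CPM in endothelial cells and 2.16 CPM in neurons. Mural cells held 1.65 COL1A1 UMIs for each COL1A2 UMI, from 286 and 173 UMIs. Progenitors held 0.0964, from 35 and 363 UMIs, and RSPO3 and LMX1A cells 0.122, from 5 and 41 UMIs. How fully each transcript is captured is not known, so the ratio is compared only between classes, and it was higher in mural cells than in progenitors or in RSPO3 and LMX1A cells. The sublibraries of progenitors gave COL1A2 levels of 21.9 and 21.1 CPM.

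COL3A1, the fibrillar collagen of distensible tissues such as vessel walls, stood at 73.2 CPM in mural cells (61.1 to 87.1), 44.0 CPM in endothelial cells (36.0 to 53.2), 40.5 CPM in progenitors (37.5 to 43.7) and 3.62 CPM in neurons (3.14 to 4.15). Endothelial cells and progenitors overlapped in their intervals, and both lay far above neurons. COL5A1, a chain of the type V collagen that starts fibrils, stood at 391 CPM in RSPO3 and LMX1A cells (340 CPM without 1 cell). It stood at 291 CPM in mural cells, 286 CPM in progenitors and 113 CPM in endothelial cells, with 35.1 CPM in neurons. Mural cells and progenitors did not differ beyond counting error for it, with intervals of 266 to 317 and 278 to 294 CPM. COL11A1, a fibrillar chain best known from cartilage, was broad, at 139.6 CPM in mural cells, 164 CPM in progenitors and 96.1 CPM in neurons, but 12.5 CPM in endothelial cells (8.40 to 17.8).

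The type VI chains form beaded filaments at the border of basement membranes. COL6A1 stood at 29.2 CPM in mural cells (21.7 to 38.4), against 1.25 CPM in endothelial cells, 0.711 CPM in progenitors and 0.281 CPM in neurons, so 51 of its 104 UMIs came from mural cells. COL6A2 stood at 28.6 CPM in mural cells (21.2 to 37.7) and 2.07 CPM in neurons, and COL6A3 at 15.4 CPM in mural cells (10.2 to 22.5) and 7.70 CPM in progenitors (6.44 to 9.15). Endothelial cells had 1.25 CPM of COL6A3, from 3 UMIs. Mural over all other cells ratios were log2 5.78 for COL6A1 (5.19 to 6.36), 4.07 for COL6A2 (3.58 to 4.53) and 2.36 for COL6A3 (1.73 to 2.93).

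**Figure D2:**
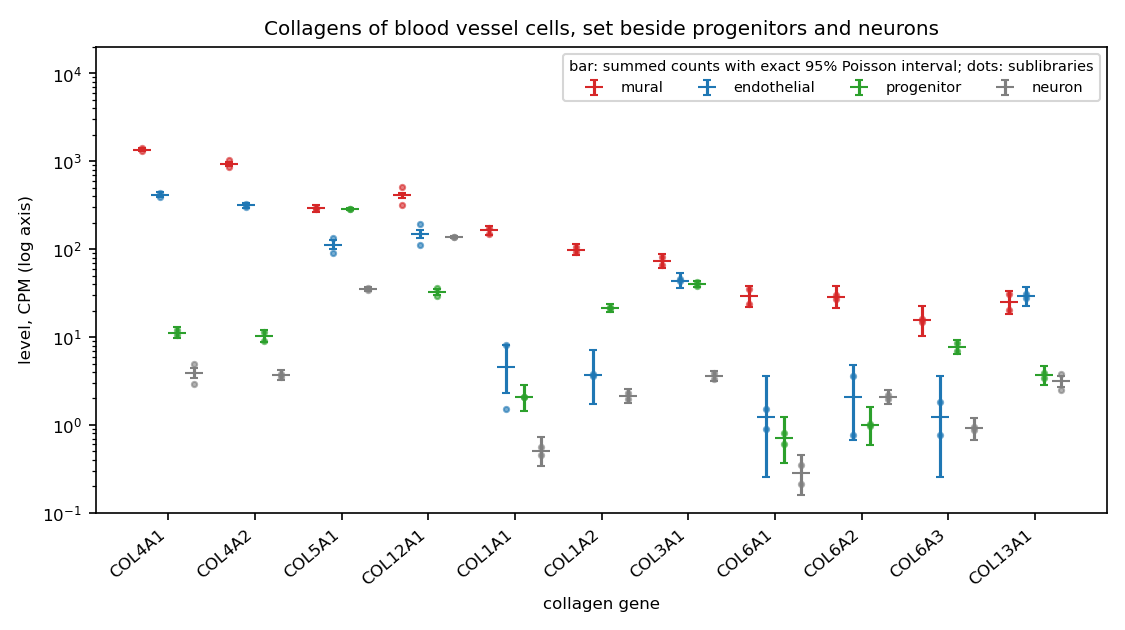
Levels in CPM (log axis) of 11 collagen genes in mural cells, endothelial cells, progenitors and neurons; bars are the summed level with its exact 95% Poisson interval and dots the 2 sublibraries (a sublibrary at 0 has no dot). The summed levels of COL1A1 and COL6A1 are 4.57 and 1.25 CPM in endothelial cells, from 11 and 3 UMIs, with intervals that overlap those of progenitors. Their levels are 2.07 and 0.711 CPM in progenitors and 0.510 and 0.281 CPM in neurons. COL4A1 and COL4A2 are second highest in endothelial cells, and COL5A1 is 291 CPM in mural cells and 286 CPM in progenitors.

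Of the FACITs, COL12A1, which binds type I fibrils in dense connective tissue, stood at 514 and 317 CPM in the 2 sublibraries of mural cells, 194 and 113 CPM in those of endothelial cells, 29.4 and 35.8 CPM in those of progenitors, and 138 and 137 CPM in those of neurons. Mural cells were highest and progenitors lowest in both, while endothelial cells lay above neurons in one sublibrary and below them in the other. COL16A1, another FACIT, stood at 8.01 CPM in mural cells (14 UMIs), 5.15 CPM in progenitors and 0.966 CPM in neurons. COL9A2 and COL9A3, chains of the type IX collagen that decorates cartilage fibrils, were low everywhere, at 5.40 and 6.23 CPM in endothelial cells, 1.14 and 6.29 CPM in mural cells, 1.24 and 3.61 CPM in progenitors and 0.756 and 2.0 CPM in neurons. COL19A1 had 21 UMIs in mural cells, but 18 of them came from 1 cell; without it the level was 1.73 CPM instead of 12.0 CPM.

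The transmembrane collagen COL13A1, which sits at cell contacts such as the neuromuscular junction, stood at 29.1 CPM in endothelial cells (22.7 to 36.7), its highest level of the 9 classes. Mural cells had 25.2 CPM (18.3 to 33.8), which overlaps, and progenitors and neurons had 3.67 and 3.13 CPM. In the 42 microglial cells COL13A1 stood at 125 CPM, from 18 UMIs in 11 cells. COL18A1, a basement membrane proteoglycan whose fragment is endostatin, was 60.1 CPM in mural cells, 28.6 CPM in endothelial cells, 80.7 CPM in progenitors and 48.8 CPM in neurons; its level in mural cells matched that in all other cells within counting error (log2 0.05, interval -0.25 to 0.33).

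Endothelial cells were set against all other cells next, with 7 members that were at least 2-fold higher and 12 that were at least 2-fold lower. Over all genes, 19.8% were that much higher and 28.2% that much lower, and the medians of members and of all genes were both log2 -0.18. Only COL3A1, COL4A1, COL4A2 and COL13A1 among the higher members had 20 UMIs in endothelial cells. Against endothelial cells directly, 18 members were at least 2-fold higher in mural cells and 3 lower, where 21% and 13.7% of all genes were; the median member was at log2 1.45 and the median gene at 0.15. Without the deepest 5% of cells, 46 endothelial cells were left and 4 members were at least 2-fold higher, where 20.7% of all genes were.

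The 87 RSPO3 and LMX1A cells had 12 members at least 2-fold above all other cells and 2 below, where 9.49% and 9.35% of all genes were, with a median of log2 0.86 for the members and 0.06 for all genes. Of those 12, 7 had 20 UMIs in these cells, a condition not applied to the shares of all genes. COL5A1 stood at 391 CPM there and 110.3 CPM in all other cells (log2 1.83), COL18A1 at 136 and 57.6 CPM (1.24), COL26A1, a secreted collagen, at 137 and 65.8 CPM (1.06), and COL4A5 at 86.4 and 34.5 CPM (1.32). Of the 276 COL5A1 UMIs in these cells, 44 came from 1 cell, and without it the level was 340 CPM, against 291 CPM in mural cells. Whether those 2 levels differ beyond counting error was not tested. Of the 97 COL26A1 UMIs in these cells, 21 came from 1 cell. Without that cell the level was 109 CPM, short of 2-fold and below the 119.7 CPM of granule cells. The 2 lower ones were COL4A1 and COL4A2, with 4 UMIs each. The E7 pool gave 61 of the 87 cells.

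The mural levels of the fibrillar and type VI genes were set beside the meningeal list. The 202 mural cells with a UMI of that list had 162 CPM of COL1A1, and the 111 mural cells with none had 168 CPM, with intervals of 141 to 186 and 133 to 210 CPM. COL1A2 was 106 CPM in the cells with such a UMI and 80.9 CPM in those without, COL3A1 81.4 and 51.1 CPM, COL4A1 1387 and 1261 CPM, and COL6A2 33.6 and 14.9 CPM. Counted on the 111 cells alone, 15 members were at least 2-fold higher than in all other cells, where 17.3% of all genes were. The 16 cells that passed both gates are in neither set; counted as mural cells, they also gave 15 higher members, an alternative added after seeing the data. The cells with a meningeal UMI were deeper, at a median of 5135 against 3615 UMIs.

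In mural cells, the total collagen level at E6, E7, E8 and E9 was 4383, 4143, 4051 and 3304 CPM. Since E6 held 13 mural cells, E9 was set against E7, with 105 cells each; this comparison was chosen after the data were seen. None of the 30 members was at least 2-fold higher at E9 and 6 were at least 2-fold lower, where 6.99% and 12.3% of all genes were. COL1A2 stood at 129.9, 94.3 and 52.9 CPM at E7, E8 and E9, and COL3A1 at 109, 60.3 and 30.5 CPM. Their E9 over E7 ratios were log2 -1.30 (-1.98 to -0.67, SD 0.29) and -1.84 (-2.73 to -1.04, SD 0.32). Without the mural cells that held a meningeal-list UMI, the ratios were -0.96 for COL1A2, short of 2-fold, and -2.18 for COL3A1. COL4A2 stood at 929, 985 and 889 CPM over the same stages, a log2 ratio of -0.06 (-0.24 to 0.11). COL4A1 stood at 1424, 1499 and 1096 CPM, a log2 ratio of -0.38 (-0.53 to -0.23). COL12A1 stood at 359.5, 378, 419 and 458 CPM from E6 to E9. Over E7, E8 and E9, the mural cells also carried 2913, 2167 and 1975 CPM of progenitor-list UMIs and 2986, 1677 and 1576 CPM of neuron-list UMIs; their part in these differences was not tested. The other 4 lower members were COL26A1, at 48.8 CPM at E9 and 99.3 CPM at E7, COL6A3, at 8.13 and 24.5 CPM, COL4A6, with 3 UMIs at E9 and 30 at E7, and COL19A1, with 0 UMIs at E9 and 20 at E7. The COL19A1 difference rests on the 1 mural cell with 18 UMIs.

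Progenitors, gated on progenitor-list over neuron-list UMIs, were next set against neurons. Of the 30 members, 14 were at least 2-fold higher in progenitors and 4 at least 2-fold lower, where 19.3% of all genes were higher and 13% lower. The median was log2 0.84 for the members and 0.21 for all genes. The 4 lower members were COL6A2, COL9A1, COL12A1 and COL19A1.

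COL22A1, a FACIT of tissue junctions such as that between muscle and tendon, had the widest difference. It stood at 1070.3 and 1227 CPM in the 2 sublibraries of progenitors and at 39.5 and 41.9 CPM in those of neurons, a 28.2-fold difference (log2 4.82, interval 4.75 to 4.88). Mural cells had 106 CPM, endothelial cells 20.8 CPM, of which 19 of the 50 UMIs came from 1 cell, and RSPO3 and LMX1A cells 159 CPM. After thinning, 48.5% of progenitors held a COL22A1 UMI and 2.61% of neurons did; unthinned, 74.0% and 10.97%. Erythroid cells held one in 11.1% (3.11 to 26.1), above the share in neurons, which is therefore not read as expression. Erythroid cells held 217 CPM of COL22A1 and 1821 CPM of progenitor-list UMIs. The thinned erythroid share was 5.56% (0.680 to 18.7) for each of COL4A5, COL4A6 and COL26A1, against 2.47%, 4.35% and 5.31% of neurons. For COL5A1 and COL25A1 it was 2.78%, against 2.40% and 1.77%. From 36 erythroid cells the intervals are wide, and these neuron shares and the 4.96% of progenitors with COL4A5 lie inside them. They are neither read as expression nor shown to be background, and the neuron levels of these genes elsewhere carry that limit. Other members fell on either side. For COL11A1, COL12A1 and COL18A1 the thinned erythroid shares were 5.56% (0.680 to 18.7), 2.78% and 2.78% (0.0703 to 14.5 for both). The shares of neurons were 8.53%, 9.98% and 4.35%. These neuron shares also lie inside the erythroid intervals, so the same limit holds for them.

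**Figure D3:**
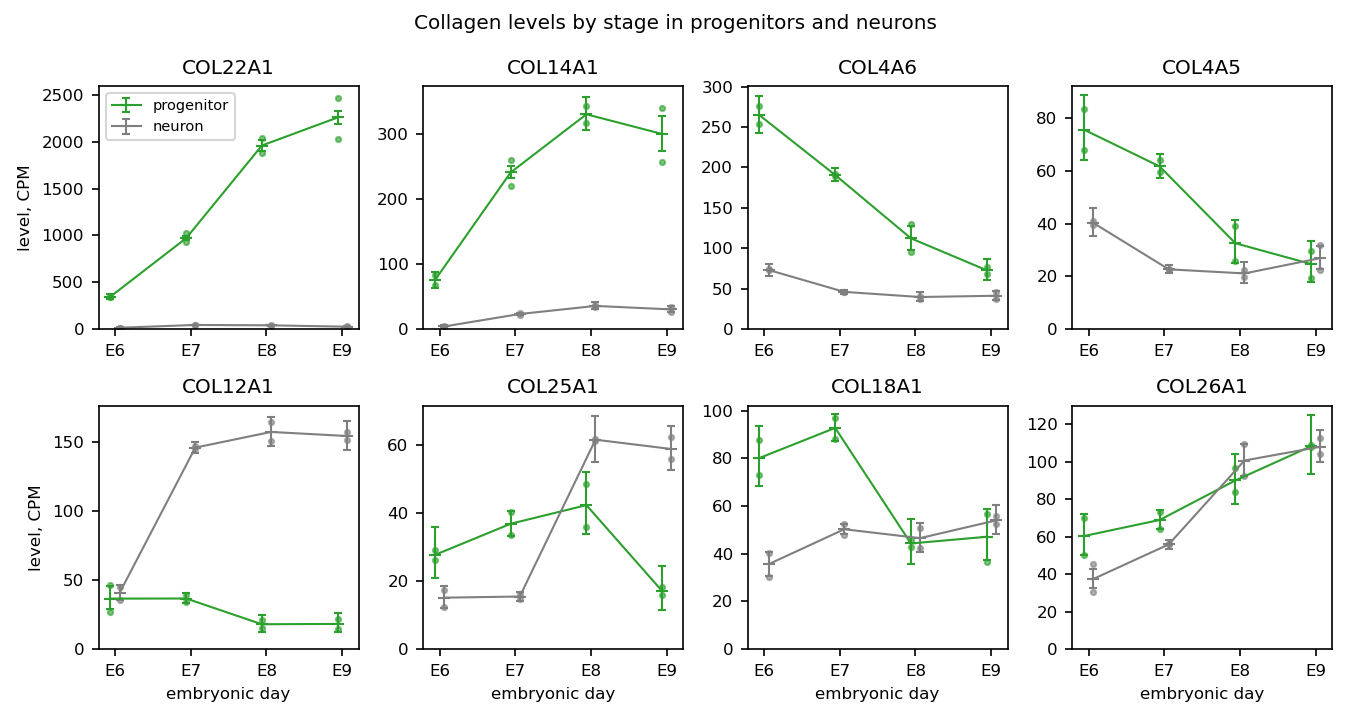
Levels in CPM of 8 collagen genes at E6, E7, E8 and E9 in progenitors and neurons; lines join the summed levels, bars are exact 95% Poisson intervals and dots the 2 sublibraries. In progenitors COL22A1 is 348 CPM at E6 and 2257 CPM at E9 while COL4A6 is 265 and 73.0 CPM; in neurons COL12A1 and COL25A1 are higher at later stages.

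COL14A1, which binds type I fibrils as COL12A1 does, stood at 245 and 230.4 CPM in the 2 sublibraries of progenitors and at 22.5 and 24.3 CPM in those of neurons (log2 3.35, interval 3.26 to 3.44). Of the 9 classes mural cells were lowest, at 7.44 CPM. It was highest in RSPO3 and LMX1A cells, at 798 and 1794 CPM in the 2 sublibraries, but 263 of the 888 UMIs there came from 1 cell, and without that cell the level was 940.1 CPM. After thinning, 26.4% of RSPO3 and LMX1A cells, 17.2% of progenitors and 1.60% of neurons held a COL14A1 UMI; unthinned, the shares were 39.1%, 39.5% and 7.72%. In erythroid cells 2.78% held one (0.0703 to 14.5), and 8.62% unthinned. The thinned share in neurons lies inside that interval, so it is neither read as expression nor shown to be background.

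The fibrillar genes followed: COL3A1 was 11.2-fold higher in progenitors than in neurons (log2 3.49, interval 3.26 to 3.72), COL1A2 9.95-fold (3.32, 3.02 to 3.62) and COL5A1 8.14-fold (3.03, 2.95 to 3.10). COL11A1 was below the 2-fold line at log2 0.77. Of the type IV genes, COL4A6 was 3.73-fold higher (1.90, 1.82 to 1.97) and COL4A5 2.27-fold (1.18, 1.06 to 1.30). COL4A1 and COL4A2 had ratios of log2 1.52 and 1.47, at levels near 10 CPM in progenitors, where mural-list UMIs summed to between 58.4 and 94.1 CPM by stage, against 19.0 to 25.2 CPM in neurons. Over all stages, PDGFRB, HEYL, KCNE4 and MYH11 led that list in progenitors, at 24.1, 17.2, 10.4 and 8.71 CPM. CSPG4 and ACTA2 were lower in progenitors than in neurons, at 1.07 and 0.356 CPM against 1.37 and 0.756 CPM. ABCC9, KCNJ8 and RGS5 were higher, at 3.20, 1.60 and 1.01 CPM against 1.34, 0.931 and 0.334 CPM. The part of mural RNA in the COL4A1 and COL4A2 ratios was not tested. COL6A3 was 8.43-fold higher (3.08, 2.60 to 3.57), unlike its partner COL6A2 below, COL16A1 5.33-fold (2.42, 1.91 to 2.93) and the corneal short-chain gene COL8A2 3.04-fold, from 27 and 30 UMIs.

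COL12A1 had the largest difference in favour of neurons. It stood at 32.5 CPM in progenitors (29.9 to 35.4) and 138 CPM in neurons (135 to 141), log2 -2.08 (-2.21 to -1.95). By stage, it stood at 36.6 CPM in progenitors and 40.7 CPM in neurons at E6 (log2 -0.15), and at 18.2 and 154 CPM at E9. COL19A1, a FACIT that interneurons make in the mouse brain, stood at 3.38 CPM in progenitors and 10.1 CPM in neurons, log2 -1.58 (-2.0 to -1.19), but at E6 the order was the other way, at 3.46 CPM in progenitors and 2.49 CPM in neurons (log2 0.48), from 7 and 14 UMIs. COL9A1 and COL6A2 stood at 0.593 and 1.01 CPM in progenitors and at 1.42 and 2.07 CPM in neurons.

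The remaining members did not reach 2-fold between progenitors and neurons. COL25A1, a neuronal transmembrane collagen that motor axons need to reach muscle in the mouse, stood at 34.4 CPM in progenitors and 24.0 CPM in neurons. Its direction differed by stage: it was higher in progenitors at E6 and E7, at 27.7 and 36.8 CPM against 15.1 and 15.5 CPM in neurons, and lower at E8 and E9, at 42.3 and 17.1 CPM against 61.6 and 58.8 CPM. COL17A1, the transmembrane collagen of skin hemidesmosomes, stood at 7.11 and 4.29 CPM, COL21A1, a FACIT of vessel walls, at 12.7 and 8.47 CPM, and COL26A1 at 74.4 and 63.4 CPM, in each case progenitors and then neurons. COL21A1 had 0 UMIs in mural cells, and the upper limit of its level there was 2.11 CPM. With the 0 UMIs set to 3, it was 5.33-fold lower in mural cells than in all other cells. That ratio rests on the set count and is not a lower limit. COL20A1, a FACIT, stood at 2.25 CPM in progenitors and 2.72 CPM in neurons. COL10A1, the collagen of hypertrophic cartilage, stood at 3.50 and 1.97 CPM, but it lies inside NT5DC1 over all its 52267 bases, and whether strand was used in counting is not given, so its reads cannot be told apart from those of NT5DC1. The 3 members below 100 UMIs were COL4A4 with 93 UMIs, COL8A1 with 64 UMIs, which shares 79919 bases with DCBLD2, and COL28A1 with 32 UMIs. COL3A1, COL11A1 and COL14A1 also overlap annotated long noncoding genes, by up to 61258 bases for COL11A1.

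Within progenitors, the total collagen level at E6, E7, E8 and E9 was 1420.2, 2315, 3232 and 3452 CPM. Between E9 and E6, 8 members were at least 2-fold higher at E9 and 6 at least 2-fold lower, where 11.8% and 8.2% of all genes were. With 20 UMIs at the higher end, a condition not applied to those shares, 5 were higher and 4 lower. The median was log2 0.35 for the members and -0.01 for all genes.

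COL22A1 made up most of that difference. Its level in progenitors at E6, E7, E8 and E9 was 348, 971, 1959 and 2257 CPM, and the 3 wells of each stage spanned 289 to 385, 918 to 1055, 1856 to 2028 and 2017 to 2350 CPM. The wells of E6 and E7 lay apart from each other and from the later stages, while those of E8 and E9 overlapped. Each stage is 1 pool whose wells are not tied to embryos. Here and below, well ranges are therefore not read as spread between embryos, and wells are not replicates of a stage. The E9 over E6 ratio was log2 2.70 (2.58 to 2.81), 2.54 and 2.83 in the 2 sublibraries. COL14A1 stood at 75.7, 241, 330.3 and 300.1 CPM, with wells spanning 55.2 to 103, 178 to 289.6, 234 to 376 and 257 to 407 CPM; E6 lay apart and the 3 later stages overlapped. Its E9 over E6 ratio was log2 1.99 (1.72 to 2.26, SD 0.51).

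The second type IV pair went the other way. COL4A6 stood at 265, 191, 112 and 73.0 CPM in progenitors at E6, E7, E8 and E9, and its wells, at 247 to 284, 172 to 200.03, 110.2 to 117 and 57.5 to 90.4 CPM, did not overlap between stages. COL4A5 stood at 75.7, 61.7, 32.6 and 24.7 CPM. The E9 over E6 ratios were log2 -1.86 (-2.15 to -1.57, SD 0.04) for COL4A6 and -1.61 (-2.14 to -1.11, SD 0.21) for COL4A5. At E9 alone, COL4A5 was no longer higher in progenitors than in neurons, at 24.7 and 27.0 CPM (log2 -0.13).

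Smaller genes also stood 2-fold apart in progenitors. COL21A1 was 24.1 CPM at E9 and 5.93 CPM at E6 (log2 2.02, interval 1.07 to 3.09), and COL13A1 17.1 and 3.46 CPM (2.30, 1.08 to 3.74). COL4A2 was 18.2 CPM at E9 and 6.92 CPM at E6, over which the mural-list UMIs in progenitors were 94.1 and 58.4 CPM and mural cells were 4.08% and 0.523% of cells. Over all stages that list sum was led by PDGFRB, HEYL, KCNE4 and MYH11, and the part of mural RNA was not tested. COL12A1 was 18.2 CPM at E9 and 36.6 CPM at E6 (log2 -1.0, interval -1.66 to -0.38). COL17A1 had 7 UMIs at E9 and 20 at E6 (log2 -1.26, interval -2.75 to 0.04). COL5A1 peaked at E7, at 192, 323, 249 and 205 CPM from E6 to E9.

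Within neurons, the total level was 409, 592, 719 and 713 CPM from E6 to E9. Here 14 members were at least 2-fold higher at E9 than at E6 and 1 was at least 2-fold lower, where 16.8% and 6.85% of all genes were. With 20 UMIs at the higher end, a condition not applied to those shares, the counts were 10 and 0. The median was log2 0.87 for the members and 0.09 for all genes.

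COL12A1 stood at 40.7, 146, 157 and 154 CPM in neurons at E6, E7, E8 and E9. The wells spanned 38.6 to 43.2 CPM at E6 and 134 to 176 CPM at the later stages, so E6 lay apart. The ratio of E9 over E6 was log2 1.92 (1.71 to 2.14, SD 0.28). COL25A1 stood at 15.1, 15.5, 61.6 and 58.8 CPM, with wells at 5.73 to 23.2 and 12.5 to 20.1 CPM at E6 and E7 and at 51.5 to 67.6 and 39.1 to 75.7 CPM at E8 and E9; the early and late stages did not overlap (log2 1.96, 1.61 to 2.32, SD 0.46). COL26A1 stood at 37.3, 55.9, 101 and 108 CPM (log2 1.53, 1.30 to 1.76). In progenitors the same gene stood at 60.3, 68.9, 90.0 and 108 CPM.

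COL14A1 was low in neurons but 7.14-fold higher at E9, at 30.5 CPM, than at E6, at 4.27 CPM (log2 2.84, interval 2.21 to 3.52, SD 0.12). COL19A1 was 17.8 CPM at E9 and 2.49 CPM at E6 (2.84, 2.02 to 3.76). COL21A1 was 17.3 and 5.87 CPM (1.56, 0.97 to 2.17), COL13A1 10.7 and 2.85 CPM (1.92, 1.10 to 2.81, SD 1.15) and COL20A1 5.28 and 1.24 CPM (2.09, 0.87 to 3.52). COL6A2 had 28 UMIs at E9 and 1 at E6, and COL4A1 32 and 12 UMIs (log2 1.40, SD 0.96). Mural-list UMIs in neurons summed to 25.2 CPM at E9 and 19.0 CPM at E6. COL4A5 and COL4A6 were lower at E9 than at E6 in neurons too, at 27.0 and 41.4 CPM at E9 and 40.4 and 73.3 CPM at E6, but stayed within 2-fold. The 1 member 2-fold lower was COL1A2, from 4 and 8 UMIs.

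**Figure D4:**
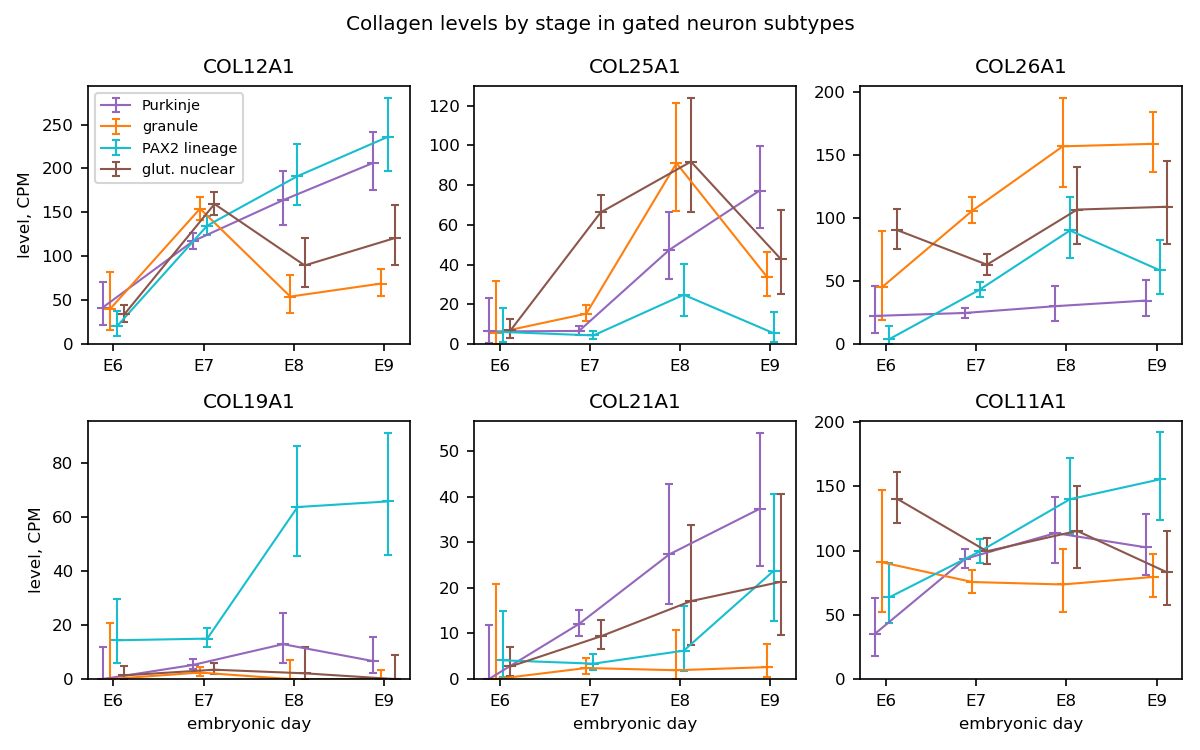
Levels in CPM of 6 collagen genes at E6, E7, E8 and E9 in 4 gated neuron types, with exact 95% Poisson intervals. COL19A1 is highest in the PAX2 lineage at each stage, COL26A1 is highest in granule cells and lowest in Purkinje cells from E7 on, and COL12A1 at E9 is 236 CPM in the PAX2 lineage and 206 CPM in Purkinje cells against 69.0 CPM in granule cells.

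The neuron types described here are the 1257 Purkinje cells, 914 granule cells, 1175 cells of the PAX2 lineage of inhibitory interneurons, and 911 glutamatergic nuclear neurons, and their mix differed between stages. Another type held 132 SOX14 neurons, and 4873 of the 9262 neurons were gated to no type. Purkinje cells held 1 member at least 2-fold above the remaining neurons, where 2.02% of all genes were, and 6 at least 2-fold below, where 8.66% were. The higher one was COL21A1, at 15.4 CPM in Purkinje cells (12.7 to 18.3) against 7.36 CPM in the remaining neurons. It was not particular to Purkinje cells, since SOX14 neurons had its highest level of the 9 classes, at 26.8 CPM (18.1 to 38.2). COL26A1 was among the lower ones, at 26.1 CPM in Purkinje cells and 69.4 CPM in the remaining neurons. Granule cells had 6 members higher and 4 lower, where 5.79% and 6.16% of genes were. COL26A1 stood at 119.7 CPM in granule cells and 57.3 CPM in the remaining neurons, and COL9A1 at 6.13 and 0.915 CPM, from 34 UMIs in granule cells; COL9A1 shares 698 bases with COL19A1.

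In the PAX2 lineage 4 members were higher and 2 lower, where 1.37% and 6.42% of genes were. COL19A1 led, at 24.2 CPM in the PAX2 lineage (20.5 to 28.3) and 8.34 CPM in the remaining neurons, a log2 ratio of 1.54. It stood at 65.8 CPM at E9 and 14.4 CPM at E6 in that lineage (log2 2.19, interval 1.01 to 3.61), and had 0 UMIs in granule cells at both stages. Glutamatergic nuclear neurons had 1 member higher and 6 lower, where 3.98% and 4.84% of genes were. That member was COL25A1, at 52.5 CPM in glutamatergic nuclear neurons and 20.6 CPM in the remaining neurons (log2 1.35). At E6, E7, E8 and E9 it stood at 6.92, 66.3, 91.8 and 42.7 CPM in them, against 15.1, 15.5, 61.6 and 58.8 CPM over all neurons, so it was above them at E7 and below them at E6 and E9, where 10 and 18 UMIs gave overlapping intervals. COL25A1 stood at 6.42, 6.70, 47.5 and 77.2 CPM in Purkinje cells from E6 to E9, and in the PAX2 lineage at 5.49 CPM at E9 and 6.16 CPM at E6.

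COL12A1 was at least 3-fold higher at E9 than at E6 in 3 of the 4 types. It stood at 206 CPM at E9 and 41.7 CPM at E6 in Purkinje cells (log2 2.31, interval 1.49 to 3.25), at 236 and 20.5 CPM in the PAX2 lineage (3.52, 2.60 to 4.62) and at 121 and 33.9 CPM in glutamatergic nuclear neurons (1.83, 1.24 to 2.43). In granule cells it stood at 69.0 and 39.7 CPM (0.80, -0.31 to 2.16), an interval that includes 0. Granule cells and glutamatergic nuclear neurons had their highest COL12A1 levels at E7, at 154 and 159.6 CPM, whereas Purkinje cells and the PAX2 lineage had theirs at E9.

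Genes that make, process, hold and bind collagen were counted from lists chosen for their known roles. In mural cells against all other cells, 7 of 17 genes for chain folding and modification were at least 2-fold higher and 2 lower (median log2 0.85, all genes -0.11). For this list and the mural counts of the lists below, 15.6% of all genes were that much higher and 21.5% that much lower. SERPINH1, the collagen chaperone HSP47, stood at 183 CPM in mural cells and 12.3 CPM in all other cells (log2 3.90). The lysyl hydroxylase PLOD1 stood at 76.1 and 5.63 CPM (3.76), and SPARC, which binds collagen outside the cell, at 659.7 and 27.4 CPM (4.59). Of 10 processing and crosslinking genes, 4 were higher and 3 lower, with a median of log2 0.08. The crosslinking enzymes LOX and LOXL2 stood at 31.5 and 64.7 CPM in mural cells and at 0.452 and 1.49 CPM in all other cells. The proteases TLL1 and ADAMTS2 were lower, at 49.8 and 24.6 CPM in mural cells against 176 and 76.0 CPM in all other cells.

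Basement membrane partners were higher in mural cells at 9 of 12 genes and lower at 2, with a median of log2 2.65. LAMA4, a vessel laminin chain, stood at 545 CPM in mural cells and 12.9 CPM in all other cells (log2 5.40), and NID1, which links laminin to type IV collagen, at 1065 and 54.0 CPM (4.30). LAMA2, which also belongs to the meningeal list, stood at 96.7 and 38.2 CPM (1.34). Of 6 collagen receptors, 4 were higher and 2 lower. The integrin ITGA1 stood at 402 CPM in mural cells and 6.43 CPM in all other cells (log2 5.96), while ITGA2 stood at 17.7 and 74.9 CPM (-2.08) and the receptor kinase DDR1 at 45.2 and 93.0 CPM (-1.04).

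In progenitors against neurons, 7 of the 17 folding and modification genes were higher and 0 lower, 3 of the 10 processing genes higher and 2 lower, 7 of the 12 basement membrane partners higher and 1 lower, and 3 of the 6 receptors higher and 0 lower. The list medians were log2 0.44, 0.57, 1.47 and 1.66 in that order, where the median of all genes was 0.21, and 19.3% of all genes were higher and 13% lower. SERPINH1 stood at 31.8 CPM in progenitors and 2.25 CPM in neurons (log2 3.82). The laminin chains LAMA1 and LAMC3 stood at 185 and 32.4 CPM in progenitors and at 21.2 and 1.48 CPM in neurons, whereas LAMA4 stood at 2.25 CPM in progenitors and 7.89 CPM in neurons. The receptors were ITGA2 (192 CPM in progenitors, 36.9 CPM in neurons), DDR1 (247 and 35.4 CPM) and DDR2 (17.9 and 2.74 CPM). Of the mural set, ITGA1 and LAMA4 were thus not on the progenitor side, and ITGA2 and DDR1, high in progenitors, were low in mural cells.

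**Figure D5:**
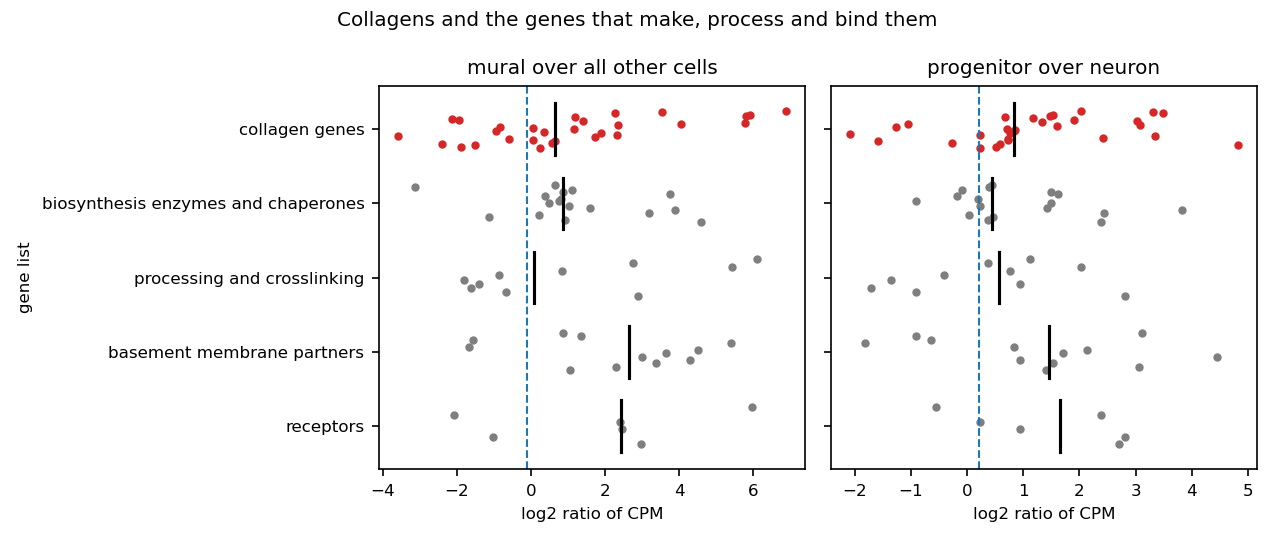
Log2 ratios of CPM for the collagen genes and for 4 lists of genes that make, process or bind collagen, mural over all other cells (left) and progenitor over neuron (right). Dots are genes, black bars list medians, and the dashed line the median of all genes (-0.11 and 0.21); the basement membrane and receptor lists have medians of 2.65 and 2.44 in mural cells.

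Between E9 and E6 in progenitors, 2 of the 17 folding and modification genes were at least 2-fold higher and 3 lower, 3 of the 10 processing genes higher and 2 lower, 2 of the 12 basement membrane partners higher and 1 lower, and 2 of the 6 receptors higher and 0 lower. The list medians were log2 0.21, 0.44, 0.25 and 0.40, against -0.01 for all genes, of which 11.8% were higher and 8.2% lower. In neurons, 3 and 1, 3 and 1, 5 and 3, and 3 and 1 genes of those lists were higher and lower, with medians of 0.22, 0.92, 0.38 and 0.68. The median of all genes there was 0.09, with 16.8% higher and 6.85% lower.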

How the data were processed

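The authors deposited 1 count matrix of UMIs per cell and gene with tables of cells and genes, covering both sublibraries. Cell Ranger, Seurat and the build GRCg7b are named in the submitters' processing notes. For the read counter, its use of strand and introns, and cell calling, nothing is given in the sources used here. Counts were used as deposited. Sublibrary 1 gave 6962 cells and 49994439 UMIs, and sublibrary 2 gave 8227 cells and 51260351 UMIs; they are technical repeats, so SDs between them hold no spread between embryos. Cells needed 500 UMIs, 300 genes and at most 20% mitochondrial UMIs (highest 4.10%, 13 genes), and 1 was left out. No doublet caller was run. Leaving out the deepest 5% of cells per stage was an alternative.

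Non-neural classes needed UMIs of at least 3 markers of 1 list and 1000 CPM of it in the cell, and 32 cells passing more than 1 list were set aside. FLT1 and PECAM1 were dropped from the endothelial list after their levels in mural cells were seen. The remaining cells were called progenitors or neurons by the log2 ratio of neuron-list to progenitor-list CPM, each with 100 CPM added, at -1 or less or 1.5 or more, and 2394 stayed ungated. Neuron types were the highest mean z-score over a list, at least 0.3 and 0.3 above the next.

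The collagen genes, marker lists, structural classes and partner lists were chosen with earlier results of these data known. Every collagen gene with 100 UMIs is named, with stage values for those past 2-fold with 20 UMIs at the higher end. Ratios are of summed CPM with exact binomial intervals, and SDs are over the 2 sublibraries. A group at 0 UMIs was set to 3. Shares of cells used 1000 UMIs drawn per cell, with Clopper-Pearson intervals. Intervals and floors cover counting error only. The recovery of known ratios was tested on simulated data. RefSeq gave coordinates for all 33 genes by symbol. Computation used pandas 2.3.3, scipy 1.17.1, numpy 2.4.6 and matplotlib 3.10.9 under Python 3.11.15.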

Additional observations from a re-analysis of the deposited data

Results flagged for a closer look

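For 3 collagen genes the difference between E9 and E6 had opposite signs in progenitors and neurons, in both sublibraries. The log2 ratio of E9 over E6 for COL12A1 was -1.0 in progenitors and 1.92 in neurons. For COL25A1 it was -0.70 in progenitors and 1.96 in neurons. For COL18A1 it was -0.77 in progenitors and 0.60 in neurons. Only COL12A1 was at least 2-fold apart in both classes. In progenitors COL25A1 was higher at E7 and E8 than at E6, and lower only at E9. The share of all genes with such opposite signs was not computed. The difference between the 2 classes was not tested, since each stage is 1 pool of cells.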

How the results depend on the processing

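No paired analysis was possible because the labels give 1 group, whose 2 sublibraries are technical repeats of 1 mix of cells. The ratios recomputed were for 78 combinations of gene and comparison already at least 2-fold apart in these data, with 20 UMIs in the higher group. They were recomputed from the same data, mostly on subsets of the same cells, so that choice favored an unchanged direction. No share of all genes is set beside the count of kept directions, so it is not read as a test of the results. Of the 975 recomputed ratios, 969 kept their direction, and 163 moved by over 1.5 times. The 6 that turned were, in endothelial over all other cells at E6 alone (7 cells), COL10A1 at log2 1.42 and COL19A1 at 1.77; COL12A1 at 0.15 in the looser meningeal gate; and, in progenitors over neurons, COL19A1 at 0.48 at E6 alone, COL8A2 at -0.65 at E8 alone and COL4A5 at -0.13 at E9 alone.

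The 14 members higher in mural cells became 9 at E6 alone (13 cells) and 14 to 15 with 1 sublibrary left out. The 7 higher in endothelial cells became 4 without the deepest 5% of cells and 4 with 20 UMIs asked of the higher group, and stayed 7 with either sublibrary left out. The 3 higher behind the meningeal gate became 1 to 3 with a sublibrary left out. The 14 higher in progenitors than in neurons became 15 to 16. The 14 members 2-fold apart between E9 and E6 in progenitors became 9 with 20 UMIs and 10 to 15 with a sublibrary left out. The 15 in neurons became 10 with 20 UMIs, 7 in Purkinje cells alone and 10 to 14 with a sublibrary left out. The 6 between E9 and E7 in mural cells became 7 to 8 with a sublibrary left out. The settings with 20 UMIs and with Purkinje cells alone were chosen after seeing the data. Among these settings, the share of all genes was computed only for endothelial cells without the deepest 5% of cells, where 20.7% were higher. The other changed counts have no such share beside them. Fewer cells or UMIs enter the smaller counts by construction. The cause of the other moves was not tested. Members under 100 UMIs and classes under 50 cells are limited by depth.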
